A study of Mus musculus with 20 samples.

Results

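The proteasome genes described here are the 47 genes whose symbol in the array annotation has the form Psma, Psmb, Psmc, Psmd, Psme, Psmf or Psmg followed by a number, of 18193 genes with a probe set listed for a single symbol. For a gene with several such probe sets, the one with the highest log2 intensity averaged over the series was used. A probe set is the group of short oligonucleotides on the array that together give 1 value for a transcript. Of the 47 genes, 46 exceeded the filter on dim probe sets and were tested among 16429 genes in all. Psmb11, the catalytic subunit known from the thymus, did not: it averaged 6.56 ± 0.486 on day 35 and 14.3 ± 0.896 on day 0 (mean ± SD of 2 arrays, as in every such pair below).

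Single-channel 3′ expression arrays recorded the RNA of the whole mouse testis at 10 ages after birth, days 0, 3, 6, 8 and 10 and then days 14, 18, 20, 30 and 35, with 2 arrays an age and 20 in all. The labels give no strain, genotype or treatment and do not say whether the 2 arrays of a day came from separate animals. The p-values therefore measure only the spread between these arrays, which may be technical. Per the labels' protocols, extraction was with Trizol and a one-cycle 3′ amplification added the biotin label. Values are the deposited intensities on a linear scale, and differences are on the scale log2(intensity + 7.83), later day minus earlier day. Intensities of different probe sets were not set against each other. In whole tissue, fewer cells of a type and less RNA per cell cannot be told apart.

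The 2 arrays of a day correlated across all genes tested with Pearson's r between 0.952 and 0.986. The array titled day 18 replicate 2 names day 0 in another label. It was kept under its title, with r = 0.969 against the other day 18 array and at most 0.769 against a day 0 array. Markers of germ cells (Ddx4 and Dazl), Sertoli cells and Leydig cells all had a tested probe set. The Sertoli cell marker Amh was dim late, at 10.2 ± 2.34 on day 35. Array medians ran from 35 to 43.4 on days 18 to 35 and from 29.4 to 33.4 on days 0 to 14. The median of the bacterial control probe sets was 8.53 over days 18 to 35, against 1.89 over days 0 to 14. Psmb11 lay below the array medians on all days. On both arrays, Psmb8 lay below them on days 0, 3, 6, 10 and 30, and Psmb9 on days 0, 3, 6, 8, 20 and 30.

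The proteasome is the main protease of the cytosol and nucleus and degrades proteins tagged with ubiquitin. Its barrel-shaped core particle has outer rings of alpha subunits, which gate the entry, and inner rings of beta subunits, of which Psmb5, Psmb6 and Psmb7 carry the active sites. A regulatory particle of ATPases and other subunits binds the ends of the barrel, recognises ubiquitin, unfolds the substrate and feeds it in. In immune cells and under interferon, Psmb8, Psmb9 and Psmb10 take the places of Psmb5, Psmb6 and Psmb7. In mouse male germ cells Psma8 takes the place of Psma7, and the activator Psme4 is known there for the breakdown of acetylated histones in spermatids.

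A gene is said to have risen or fallen where limma's test gave a Benjamini-Hochberg adjusted p under 0.05 over all 16429 genes and the difference was at least 2-fold. Over the time course 27 of 46 proteasome genes (58.7%) passed limma's F test with a range of day means of at least 2-fold, beside 77.6% of all genes tested. On day 35 against day 0, 7 proteasome genes rose (15.2%) and 11 fell (23.9%), beside 27.3% and 27.6% of all genes. Both shares were below those of all genes. The 7 that rose were Psma8, Psmb8, Psmc3, Psmd8, Psme3, Psme4 and Psmf1. The 11 that fell were Psma1, Psma2, Psma5, Psma7, Psmb1, Psmb2, Psmb3, Psmc6, Psmd5, Psme1 and Psmg3. By the adjusted p alone, with no minimum size, 11 were higher (23.9%) and 29 lower (63%), beside 34.4% and 39% of all genes. Without the 2-fold limit, the share that was lower thus exceeded that of all genes. Passing at the adjusted p alone depends on brightness and spread, in which the proteasome genes were not matched to all genes.

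Few proteasome genes rose or fell within a shorter interval. On day 8 against day 0 only Psme3 rose, with a background of 3.29% of all genes, and on day 14 against day 8 only Psma8 did, with a background of 5.48%. No member fell in these 2 intervals, beside 2.77% and 2.5% of all genes in limma's test. At an unadjusted p under 0.05, 15 members were higher and 2 lower on day 8 against day 0, beside 17.5% and 14.6% of all genes. On day 14 against day 8, 1 was higher and 20 were lower, beside 17.6% and 16.8%. On day 20 against day 14, when 18.2% of all genes rose and 11.2% fell, Psmc3 was the only member that rose and Psmd5 the only one that fell. On day 35 against day 20, Psme3 and Psmf1 rose and Psmg3 fell, beside 8.5% and 7.27% of all genes. By the adjusted p alone, more members passed in every interval. On day 8 against day 0, 10 were higher and 1 lower, beside 12.6% and 9.11% of all genes. On day 14 against day 8, 1 was higher and 14 lower, beside 13.6% and 11.6%. On day 20 against day 14, 14 were higher and 18 lower, beside 27.1% and 29.6%. On day 35 against day 20, 7 were higher and 28 lower, beside 12.5% and 31.6%. The 28 make up 60.9% of the 46 genes. Over the time course 45 passed, beside 87.9% of all genes. The lowest day mean was on day 30 for 27 of the 46 genes tested, and the highest on day 8 for 13. These days were not counted over all genes, so neither is shown to be particular to proteasome genes. The day 30 arrays had the lowest r of any day (0.952) and medians of 41 and 43.4. Leaving out single arrays moved some members past 2-fold: without day 0 replicate 2, Psma8 gave 1.01 and Psmb8 1.31 on day 8 against day 0. Without day 35 replicate 1, Psma1 (−1.01) and Psme1 (−1.06) were also called lower on day 35 against day 20, and without day 35 replicate 2, Psmb9 (1.33) higher. Setting the arrays to a common median shifted the median of all genes by −0.19 on day 20 against day 14 and −0.12 on day 35 against day 0. These 5 comparisons share arrays, so they are not independent.

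**Figure D1:**
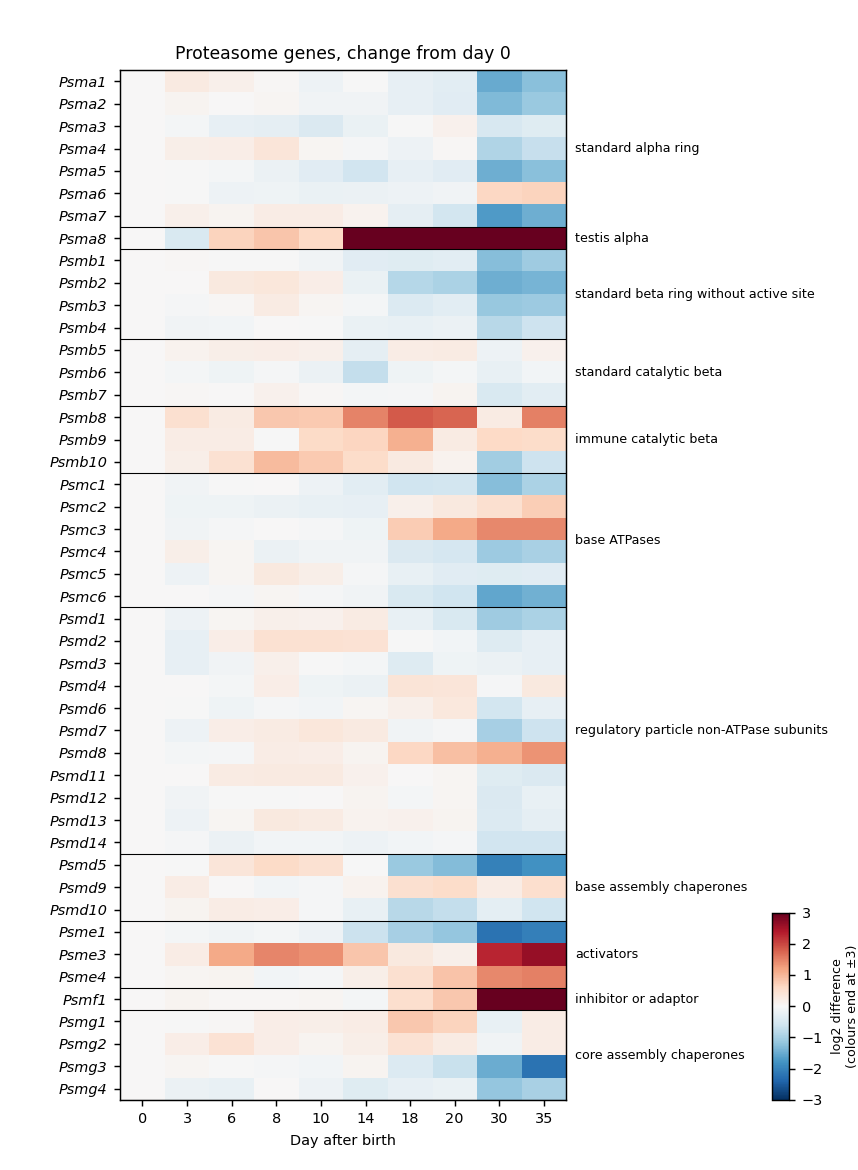
Log2 difference from day 0 of the 46 tested proteasome genes (rows, grouped by role) on each day (columns, evenly spaced; mean of 2 arrays), red for higher and blue for lower, with colours ending at ±3. Psma8 is red from day 14 and Psmf1 from day 30, while most alpha and beta ring genes are pale until day 20 and blue on days 30 and 35.

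Of the 7 standard alpha subunits, Psma1, Psma2, Psma5 and Psma7 fell on day 35 against day 0, and none rose. The median log2 difference of the 7 from day 0 was 0.04 on day 8, −0.12 on day 14, −0.31 on day 20, −1.32 on day 30 and −1.10 on day 35, beside −0.03 for all genes on day 35. Psma7 had the largest fall of the 7, with 484 and 429 on the day 35 arrays against 1325 and 1213 on the day 0 arrays (log2 difference −1.46 ± 0.09 (SE), limma adjusted p = 1.2e-11). The groups did not overlap. Psma1 averaged 582 ± 35.3 on day 35 and 1402 ± 81.3 on day 0 (−1.26), and Psma5 948 ± 41.3 on day 35 and 2277 ± 51.8 on day 0 (−1.26). With the mean of all probe sets of a gene in place of the brightest, the difference was −0.85 for Psma1 and −0.47 for Psma5, and neither was called. Psma3 (log2 difference −0.37) and Psma4 (−0.69) stayed under 2-fold.

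Psma6 was the exception among the standard alpha subunits. It averaged 4972 ± 385 on day 35 and 3101 ± 163 on day 0, a log2 difference of 0.68 ± 0.08 (SE), past the adjusted p (1.26e-07, limma) but under 2-fold. Its second probe set, 1416506_at, averaged 4624 ± 182 on day 35 and 1898 ± 148 on day 0 and was called higher (1.28, limma adjusted p = 7.96e-13). Another and dim one, 1435316_at, was called lower (−1.01, limma adjusted p = 0.0214), with means of 1.37 ± 0.04 on day 35 and 10.9 ± 2.74 on day 0.

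Of the 4 beta subunits that carry no active site, Psmb1, Psmb2 and Psmb3 fell on day 35 against day 0, and the median of the 4 was −1.08. Of the 3 that carry one, none rose or fell, and their median was −0.07. Psmb2 averaged 229 ± 31 on day 35 and 613 ± 16.7 on day 0 (log2 difference −1.40 ± 0.16 (SE), limma adjusted p = 1.31e-07), and most of that difference was in place by day 20, at 312. Psmb1 (−1.07) and Psmb3 (−1.09) passed the 2-fold limit narrowly: Psmb1 gave −0.98 without day 0 replicate 1 and −0.63 with the mean of its probe sets, and Psmb3 −0.98 without day 35 replicate 2. Psmb4, at −0.63, was not called. The difference between the 2 groups of beta subunits was not tested.

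The 3 standard catalytic genes had ranges of day means of 0.52, 0.71 and 0.59 on the log2 scale over the 10 days. Psmb5, the chymotrypsin-like subunit, gave 1208 and 1123 on the day 35 arrays against 1154 and 997 on the day 0 arrays, a log2 difference of 0.12 ± 0.08 (SE) with a limma adjusted p of 0.202. Psmb6, the caspase-like subunit, gave 1907 and 1851 on day 35 against 2049 and 1911 on day 0 (log2 difference −0.07 ± 0.07 (SE), limma adjusted p = 0.378). Psmb7, the trypsin-like subunit, gave 3069.9 and 3318 on day 35 against 4059 and 3857 on day 0 (log2 difference −0.31 ± 0.07 (SE), limma adjusted p = 0.00037). Arrays of the 2 days overlapped for Psmb5 and did not overlap for Psmb7. Those of Psmb6 all but met, at 1907 on day 35 and 1911 on day 0. The share of all genes without overlap was not counted. Over all 10 days the smallest ranges of the 46 genes were 0.52 for Psmb5, 0.52 for the regulatory particle subunit Psmd12 and 0.55 for the regulatory particle subunit Psmd3.

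Psmb5 and Psmb6 had their lowest day means on day 14, as did Psmc2, Psmc3, Psmd4 and Psmf1. Psmb5 averaged 882 ± 10.3 on day 14 against 1229.7 ± 90.7 on day 8 (log2 difference −0.47 ± 0.08 (SE)), and 1265 ± 45.7 on day 20 against day 14 (0.52 ± 0.08 (SE)). Psmb6 averaged 1216 ± 163 on day 14 against 1928 ± 62.5 on day 8 (−0.67 ± 0.07 (SE)), and 1905 ± 55.5 on day 20 against day 14 (0.65 ± 0.07 (SE)). All 4 differences passed limma's adjusted p, from 4.63e-07 to 0.000201, and none reached 2-fold. Psmb7 gave −0.18 and 0.14 in the same intervals, and neither passed. Whether Psmb7 differed from Psmb5 and Psmb6 there was not tested. By the adjusted p alone, Psma5 and Psmd4 were also lower on day 14 against day 8 and higher on day 20 against day 14.

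**Figure D2:**
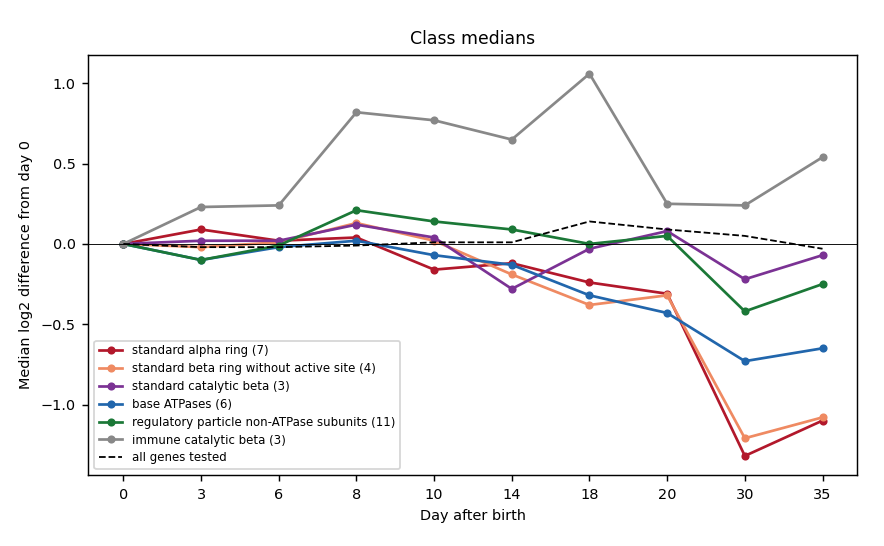
Median log2 difference from day 0 of proteasome genes by role (number of genes in brackets), by day after birth (evenly spaced), with the median of all genes tested as a dashed line. The alpha ring and the beta ring genes without an active site lie at −1.10 and −1.08 on day 35, and the catalytic beta genes at −0.07.

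Psma8, the alpha subunit of mouse male germ cells, had the largest range of the 46 genes over the 10 days (4.92 on the log2 scale). It gave 62.2 and 82.7 on day 0, 60.4 and 41.7 on day 3, 118 and 119 on day 6, 134 and 133 on day 8, 116 and 109.9 on day 10, 1132 and 987 on day 14, 1699 and 1702 on day 18, 1762 and 1745 on day 20, 885 and 930.3 on day 30 and 1109 and 1155 on day 35. The highest array up to day 10 was 134 and the lowest from day 14 on 885, so the arrays on either side of that step did not overlap. On day 14 against day 8 the mean was 1059.6 ± 102 against 133 ± 0.458 (log2 difference 2.92 ± 0.13 (SE), limma adjusted p = 2.02e-12). On day 20 against day 14 it was higher by 0.73 ± 0.13 (SE), and on day 35 against day 20 lower (−0.63 ± 0.13 (SE)), both past the adjusted p and under 2-fold. Its mean on day 35 was 1132 ± 32.5, against 72.4 ± 14.5 on day 0 (log2 difference 3.84 ± 0.13 (SE), limma adjusted p = 1.53e-15).

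Psma7, the subunit whose place Psma8 takes, gave 1325 and 1213 on day 0, 1455 and 1372 on day 3, 1367 and 1335 on day 6, 1437 and 1514 on day 8, 1441 and 1541 on day 10, 1291 and 1436 on day 14, 1027 and 1067 on day 18, 901 and 824 on day 20, 423 and 355 on day 30 and 484 and 429 on day 35. Its level was highest on days 8 and 10 and lowest on day 30. Within each array, log2 Psma8 minus log2 Psma7, set to 0 on day 0, averaged 0.36 ± 0.12 on day 10, 3.63 ± 0.25 on day 14, 5.02 ± 0.08 on day 20 and 5.30 ± 0.16 on day 35 (SD, n = 2 arrays each), with an SD of 0.35 on day 0. From day 18 on it lay between 4.70 and 5.30, while the means of both genes were lower on days 30 and 35 than on day 20. A second probe set of Psma7, 1423568_at, also fell (−1.07), with 520.1 ± 18.6 on day 35 and 1107 ± 127 on day 0.

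All 4 of 4 spermatocyte markers (Sycp3, Piwil1, Hspa2 and Ldhc) rose on day 14 against day 8, beside 5.48% of all genes. This was the interval of the step of Psma8. Of the 4 markers, 2 also rose on day 8 against day 0 and 2 on day 20 against day 14, beside 3.29% and 18.2% of all genes. Ldhc fell on day 8 against day 0 (−1.79), to a dim 1.11 and 11 on the day 8 arrays. The summed intensity of the 4 was 6735 to 7591 on the day 14 arrays against 855 to 861 on the day 8 arrays. The 4 spermatid markers (Acrv1, Tnp1, Prm1 and Odf1) summed to 39.9 to 41.5 on day 14 against 43.4 to 50.2 on day 8. None of them rose and 1 fell (−1.2). Some of the spermatid markers were dim here: Acrv1 averaged 6.24 on day 14 and Prm1 6.45 on day 8. The 40th percentile of the arrays of days 0 to 14 was 16.7 to 20.3. The part of cell numbers in the Psma8 step was not tested.

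**Figure D3:**
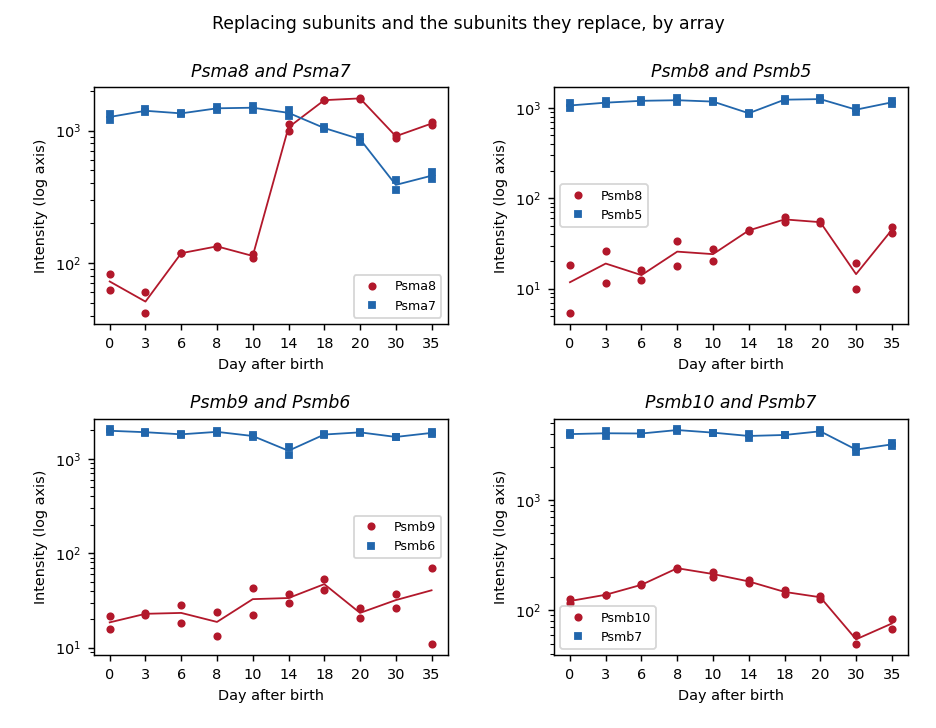
Intensity on each of the 20 arrays (points; log axis) and day means (lines) of the 4 subunits that replace another (red circles) and of the subunits they replace (blue squares), by day after birth (evenly spaced). Levels of different probe sets are not comparable, so only the shapes bear reading: Psma8 steps up on day 14, while Psma7 has its lowest mean on day 30.

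The 3 immune subunits had different outcomes in the tests. Psmb8 rose on day 35 against day 0, Psmb9 did not pass the test in any of the 5 comparisons, and Psmb10 had a peak on day 8 and its lowest level on day 30. Their median log2 difference on day 35 was 0.54, over 3 genes. Psmb8, which takes the place of Psmb5, gave 5.33 and 18.2 on day 0, 11.5 and 26.4 on day 3, 15.9 and 12.3 on day 6, 18 and 33.4 on day 8, 27.8 and 20.4 on day 10, 44.9 and 43.4 on day 14, 54.3 and 62.8 on day 18, 53.6 and 55.5 on day 20, 9.91 and 19 on day 30 and 41.5 and 48.2 on day 35. Both day 35 arrays lay above both day 0 arrays (log2 difference 1.50 ± 0.37 (SE), limma adjusted p = 0.00127). On days 0 to 10 its values ran from 5.33 to 33.4, about or below the array medians, and the rise was 0.37 and not called when values were floored at the pooled median. Its 9.91 and 19 on day 30 also lay below the medians of those arrays (41 and 43.4). A second, dimmer probe set of Psmb8, 1444619_x_at, averaged 22.6 ± 4.57 on day 35 and 6.8 ± 7.01 on day 0. It was also called higher (1.13, limma adjusted p = 0.0348 over 30242 single-symbol probe sets). Its day 35 mean lay under the 40th percentile of those arrays (24.9 and 25.5).

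Psmb9, which takes the place of Psmb6, gave 15.6 and 21.4 on day 0, 23.2 and 22.4 on day 3, 18.4 and 28.2 on day 6, 24 and 13.4 on day 8, 22.4 and 42.8 on day 10, 37.3 and 29.7 on day 14, 40.4 and 53.6 on day 18, 20.6 and 26 on day 20, 37.2 and 26.5 on day 30 and 70.1 and 10.8 on day 35. The 2 day 35 arrays spanned both day 0 arrays (log2 difference 0.54 ± 0.47 (SE), limma adjusted p = 0.305). A single array set the direction on day 35: the difference from day 0 was −0.49 without day 35 replicate 1, and 1.58 without day 35 replicate 2, where it was called at an adjusted p of 0.00211. Psmb9 was the only 1 of the 46 genes that did not pass limma's F test over the time course at an adjusted p under 0.05.

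Psmb10, which takes the place of Psmb7, gave 117 and 126 on day 0, 138 and 139 on day 3, 169 and 172 on day 6, 244 and 238 on day 8, 202 and 225 on day 10, 176 and 189.9 on day 14, 152 and 142 on day 18, 136 and 127 on day 20, 49.1 and 60.2 on day 30 and 68.3 and 83.7 on day 35. Its arrays were higher on days 8 and 10 than on days 0 and 3 and lower on days 30 and 35 than on all earlier days. On day 8 it averaged 241 ± 4.27, against 121 ± 6.42 on day 0, a log2 difference of 0.94 ± 0.14 (SE) with a limma adjusted p of 7.71e-05, short of 2-fold. With arrays set to a common median it was 1.05 and called. On day 35 it averaged 76 ± 10.9, lower than on day 0 by the adjusted p (log2 difference −0.63 ± 0.14 (SE), limma adjusted p = 0.000636).

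Within each array, log2 Psmb8 minus log2 Psmb5 averaged 1.77 ± 0.01 on day 14, 1.52 ± 0.08 on day 20, 0.39 ± 0.31 on day 30 and 1.39 ± 0.21 on day 35, set to 0 on day 0, where its SD was 0.85. Psmb9 minus Psmb6 was 1.36 ± 0 on day 14, 1.19 ± 0.23 on day 18, 0.30 ± 0.13 on day 20 and 0.62 ± 1.43 on day 35, with an SD of 0.30 on day 0. The day 14 values of these 2 pairs include the low point of Psmb5 and Psmb6 on that day. Psmb10 minus Psmb7 was 0.82 ± 0.01 on day 8 and −0.32 ± 0.11 on day 35, with an SD of 0.13 on day 0. The levels of Psmb8 and Psmb9 on day 0, and of Psmb8 on day 30, lie near or below the 40th percentile of the arrays. The sizes of their differences therefore depend on the constant of 7.83.

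Of 10 leukocyte and macrophage markers, 5 rose on day 14 against day 8, beside 5.48% of all genes. On day 35 against day 0, 3 rose and none fell, beside 27.3% and 27.6% of all genes. The summed intensity of the 10 markers was 798 to 864 on the day 0 arrays, 1028 to 1092 on day 8, 2211 to 2834 on day 14, 2152 to 2163 on day 20, 1551 to 1658 on day 30 and 1295 to 1497 on day 35. Some markers were dim: Cd14 averaged 12.3 ± 12.1 on day 3, under the 40th percentile of the arrays of days 0 to 14 (16.7 to 20.3). Ptprc, which marks all leukocytes, averaged 23.9 ± 11.9 on day 35 and 23.7 ± 1.74 on day 0. The part of these cells in the levels of Psmb8 and Psmb10 was not tested.

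Genes of antigen presentation and of the interferon response went different ways. Of 13 such genes, 12 had a tested probe set. On day 35 against day 0, 2 rose and 3 fell, beside 27.3% and 27.6% of all genes, with a median of 0.10. H2-K1, a class I heavy chain, rose (641 ± 26.9 on day 35 and 165 ± 2.21 on day 0, log2 difference 1.91 ± 0.09 (SE), limma adjusted p = 1.62e-13), as did Cd74, the class II invariant chain (1.18). B2m, the light chain of class I, fell (639.8 ± 106 on day 35 and 1621 ± 30.8 on day 0, −1.34), as did Erap1, the peptide-trimming enzyme of the endoplasmic reticulum (−1.80), and the lysosomal thiol reductase Ifi30 (−1.52). H2-D1, another class I heavy chain, had its highest mean of 826 on day 14 and differed by 0.65 on day 35, under 2-fold. Irf1, a transcription factor of the interferon response, differed by −0.06 ± 0.17 (SE) (limma adjusted p = 0.771), and Tap1, a peptide transporter encoded beside Psmb8 and Psmb9, by −0.91 ± 0.48 (SE) (limma adjusted p = 0.0984).

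The promoters of Psmb8 and of Psmb5, the subunit it replaces, are shown because Psmb8 rose on day 35 against day 0 and Psmb5 was not called. Both are RefSeq sequences of the mouse assembly GRCm38.p6, from 250 bases before to 30 after the annotated start, Psmb8 at chr17:34197945-34198224 on the plus strand and Psmb5 at chr14:54617966-54618245 on the minus strand. Capitals mark the GAS motif TTCNNNGAA in Psmb8, an element of the interferon response, and the core of the antioxidant response element, TGANNNNGC, in Psmb5.
Psmb8 promoter: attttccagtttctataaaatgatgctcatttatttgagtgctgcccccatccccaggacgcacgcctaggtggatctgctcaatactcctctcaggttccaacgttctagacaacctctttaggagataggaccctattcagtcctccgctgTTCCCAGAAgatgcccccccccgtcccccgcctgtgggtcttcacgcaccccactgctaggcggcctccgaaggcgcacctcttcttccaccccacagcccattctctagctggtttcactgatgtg
Psmb5 promoter: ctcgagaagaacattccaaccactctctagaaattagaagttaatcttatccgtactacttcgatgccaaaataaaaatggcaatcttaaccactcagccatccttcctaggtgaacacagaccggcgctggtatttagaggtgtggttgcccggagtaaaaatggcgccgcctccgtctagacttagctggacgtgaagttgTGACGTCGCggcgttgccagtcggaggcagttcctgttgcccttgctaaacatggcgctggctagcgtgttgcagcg
The GAS motif begins 97 bases before the start of Psmb8, and the antioxidant core 47 bases before that of Psmb5. A match is a description of these letters and not a shown binding site. Promoters of 39 of the 47 genes, 41 in all, were searched on both strands beside 32851 promoters of all genes. Those of the other proteasome genes are not reported here. GAS was found in 7.32% of the proteasome promoters (Psmb8, Psmd2 and Psmg1) and 7.83% of all, and the antioxidant core in 48.8% and 39.1%. The CCAAT box was found in 34.1% and 36.1%, and the cyclic AMP response element TGACGTCA, whose letters can overlap those of the antioxidant core, in 0% and 1.74%.

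The 17 genes of the regulatory particle had a median log2 difference of −0.27 on day 35 against day 0, beside −0.88 for the 14 standard genes of the core, a difference that was not tested. It was −0.65 over the 6 ATPases and −0.25 over the 11 other subunits. Among the ATPases, which form the ring that unfolds substrates, Psmc3 rose and Psmc6 fell. Psmc3 gave 1568 and 1461 on day 0, 1441 and 1387 on day 3, 1517 and 1434 on day 6, 1486 and 1574 on day 8, 1463 and 1499 on day 10, 1432 and 1321 on day 14, 2476 and 2649 on day 18, 3366 and 3333 on day 20, 4080.3 and 4175 on day 30 and 4238 and 3970.4 on day 35. Every array from day 18 on lay above every earlier one. On day 20 it averaged 3349.6 ± 23.2, against 1376 ± 78.6 on day 14 (log2 difference 1.28 ± 0.07 (SE), limma adjusted p = 7.92e-12), and on day 35 4104 ± 189 (log2 difference 1.43 ± 0.07 (SE), limma adjusted p = 1.4e-13 against day 0).

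Psmc6 averaged 499 ± 48.8 on day 35 and 1361 ± 101 on day 0 (log2 difference −1.44 ± 0.10 (SE), limma adjusted p = 1.26e-10). Its other probe sets fell further: 1417770_s_at averaged 58 ± 3.59 on day 35 and 597 ± 45.3 on day 0 (−3.20), and 1417769_at 3.26 ± 2.34 on day 35 and 84.2 ± 6.57 on day 0 (−3.07). The mean of all 3 gave −2.57. Of the other ATPases, Psmc2 was higher by 0.73 and Psmc1, Psmc4 and Psmc5 lower by the adjusted p alone (−0.95, −0.97 and −0.35). Psmc1 and Psmc4 were called lower with arrays set to a common median (−1.09 and −1.10).

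Of the 11 non-ATPase subunits, 1 rose and none fell on day 35 against day 0. Psmd8, a subunit of the lid, averaged 2512 ± 86.9 on day 35 and 975 ± 36.2 on day 0 (log2 difference 1.36 ± 0.07 (SE), limma adjusted p = 6.54e-13). Its day means were 1037 on day 14, 1514 on day 18, 1831 on day 20 and 2062 on day 30. Psmd4, a ubiquitin receptor, gave 0.30, and Psmd14, the deubiquitinase of the lid, −0.58, both past the adjusted p and under 2-fold. Psmd1, a scaffold of the base, gave −0.94, and −1.08 with a common median, where it was called. At adjusted p alone, 8 of the 11 were lower and 2 higher, beside 39% and 34.4% of all genes, and Psmd3 did not pass.

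**Figure D4:**
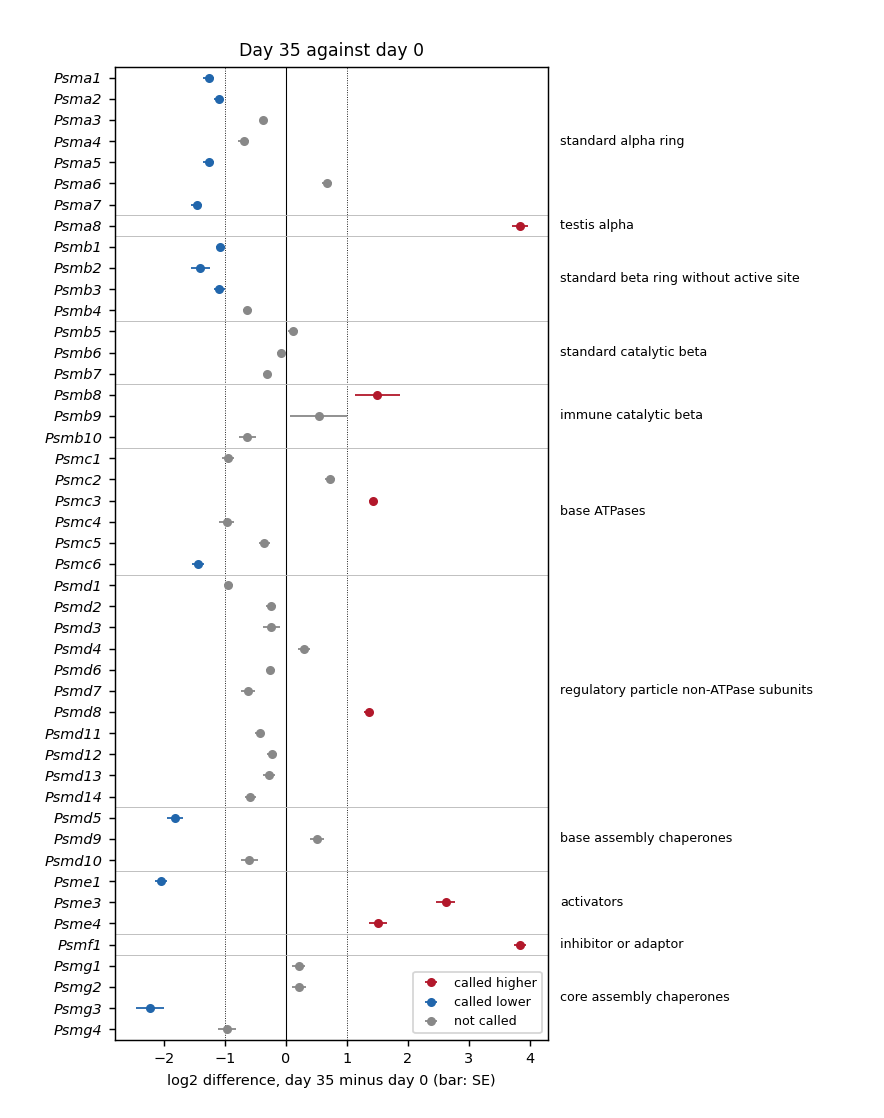
Log2 difference of each tested proteasome gene, day 35 minus day 0 (points, with bars for the SE of the limma fit, 2 arrays a day), grouped by role; dotted lines mark a 2-fold difference. The 7 genes that rose (red) reach 3.84 for Psma8 and Psmf1, and the 11 that fell (blue) reach −2.22 for Psmg3.

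The 3 tested activators, which bind the core in place of the regulatory particle, all passed the test on day 35 against day 0, in both directions: Psme1 fell, and Psme3 and Psme4 rose. Psme1, a partner in the activator induced by interferon, gave 1132 and 1108 on day 0, 1065 and 1068 on day 3, 1047 and 1021 on day 6, 1043 and 1115 on day 8, 984 and 1024 on day 10, 647 and 777 on day 14, 541 and 569 on day 18, 474 and 529 on day 20, 219 and 252 on day 30 and 295 and 236 on day 35. Its day means lay between 1004 and 1119.6 up to day 10, and each later one up to day 30 was lower than the one before. On day 35 it averaged 266 ± 41.7, against 1119.6 ± 16.9 on day 0 (log2 difference −2.05 ± 0.10 (SE), limma adjusted p = 6.45e-13). Its partner Psme2 is listed only on a probe set shared with Psme2b and is not one of the 47 genes.

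Psme3, the activator of the nucleus, gave 236 and 145 on day 0, 225 and 209.6 on day 3, 421 and 416 on day 6, 542 and 503 on day 8, 489.6 and 486 on day 10, 363 and 312 on day 14, 217 and 239 on day 18, 236 and 178 on day 20, 897 and 969 on day 30 and 1177 and 1177 on day 35. It had a first maximum on day 8, a low on day 20 and a higher maximum on day 35. On day 8 it averaged 522 ± 27.4, against 191 ± 64.7 on day 0 (log2 difference 1.46 ± 0.16 (SE), limma adjusted p = 1.29e-06). On day 35 it averaged 1177 ± 0.354, against 207 ± 41 on day 20 (log2 difference 2.48 ± 0.16 (SE), limma adjusted p = 2.36e-10). A second probe set, 1418078_at, had its highest mean on day 10 and averaged 137 ± 14.2 on day 35 and 235 ± 13.5 on day 0 (−0.75, not called). With the mean of its 3 probe sets Psme3 differed by 0.74 on day 8 against day 0 and 0.76 on day 35 against day 20, neither called, and by 1.10 on day 35 against day 0, still called.

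Psme4, the activator known from spermatids, gave 739 and 671 on day 0, 796 and 673 on day 3, 723 and 777 on day 6, 734 and 603 on day 8, 791 and 599 on day 10, 714 and 888 on day 14, 986 and 989 on day 18, 1339 and 1237 on day 20, 2002 and 1879 on day 30 and 2429 and 1668 on day 35. From day 10 on each day mean exceeded the one before, and both day 35 arrays lay above both day 0 arrays (2049 ± 538 on day 35 and 705 ± 47.7 on day 0, log2 difference 1.51 ± 0.15 (SE), limma adjusted p = 2.39e-08). The probe sets 1452211_at (1.66) and 1426824_at (1.65) rose as well. The dim 1446464_at was called lower (−1.57), with 13 ± 1.34 on day 35 and 53.9 ± 1.37 on day 0, and the mean of the probe sets of Psme4 gave 0.45 and not called.

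The promoters of Psme1 and Psme4 are given as those of an activator gene that fell and one that rose, from the same RefSeq table and window: Psme1 at chr14:55578244-55578523 on the plus strand and Psme4 at chr11:30771525-30771804 on the plus strand. Capitals mark the core of the interferon-stimulated response element in Psme1, which is GAAA and GAAA with any 2 bases between them (on the opposite strand), and the antioxidant core, also on the opposite strand, in Psme4.
Psme1 promoter: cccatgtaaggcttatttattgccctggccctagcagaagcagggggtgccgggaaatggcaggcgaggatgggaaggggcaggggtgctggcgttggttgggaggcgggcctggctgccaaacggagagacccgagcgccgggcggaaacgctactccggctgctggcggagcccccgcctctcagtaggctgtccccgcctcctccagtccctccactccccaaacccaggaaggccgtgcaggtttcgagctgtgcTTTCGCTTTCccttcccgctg
Psme4 promoter: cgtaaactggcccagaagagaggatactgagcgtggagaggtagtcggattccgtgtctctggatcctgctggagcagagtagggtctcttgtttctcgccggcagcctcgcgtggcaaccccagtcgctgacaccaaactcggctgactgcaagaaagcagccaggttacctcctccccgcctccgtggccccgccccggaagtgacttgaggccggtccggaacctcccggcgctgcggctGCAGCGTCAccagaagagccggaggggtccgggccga
The interferon element was found in 12.2% of the 41 proteasome promoters (Psmb3, Psmd4, Psmd9, Psme1 and Psmg4) and in 3.28% of all promoters. Of these 5 genes, Psmb3 and Psme1 fell on day 35 against day 0 and the other 3 were not called.

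Psmf1, first described as an inhibitor of the isolated core particle, lay between 161 and 189.8 up to day 14 and rose late. It gave 167 and 169 on day 0, 166 and 189.8 on day 3, 169 and 175 on day 6, 174 and 171 on day 8, 177 and 172 on day 10, 162 and 161 on day 14, 227 and 255 on day 18, 292 and 309.9 on day 20, 1811 and 1805 on day 30 and 2569 and 2444 on day 35. Both arrays of days 30 and 35 exceeded every earlier array. On day 35 it averaged 2507 ± 88.4, against 301 ± 12.7 on day 20 (log2 difference 3.03 ± 0.10 (SE), limma adjusted p = 1.44e-14) and 168 ± 1.73 on day 0 (log2 difference 3.84 ± 0.10 (SE), limma adjusted p = 1.98e-17). The rise was seen in 1 of its 4 probe sets, 1451337_at. The others were 1424370_s_at (−0.55, not called), 1424369_at (0.02, not called) and 1424371_at (−1.14, called lower, with 19 ± 17.7 on day 35 and 45.3 ± 12.4 on day 0). With the mean of the 4, Psmf1 differed by 0.51 on day 35 against day 20 and 0.54 against day 0, and neither was called. The files used here do not say which transcripts the probe sets match.

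**Figure D5:**
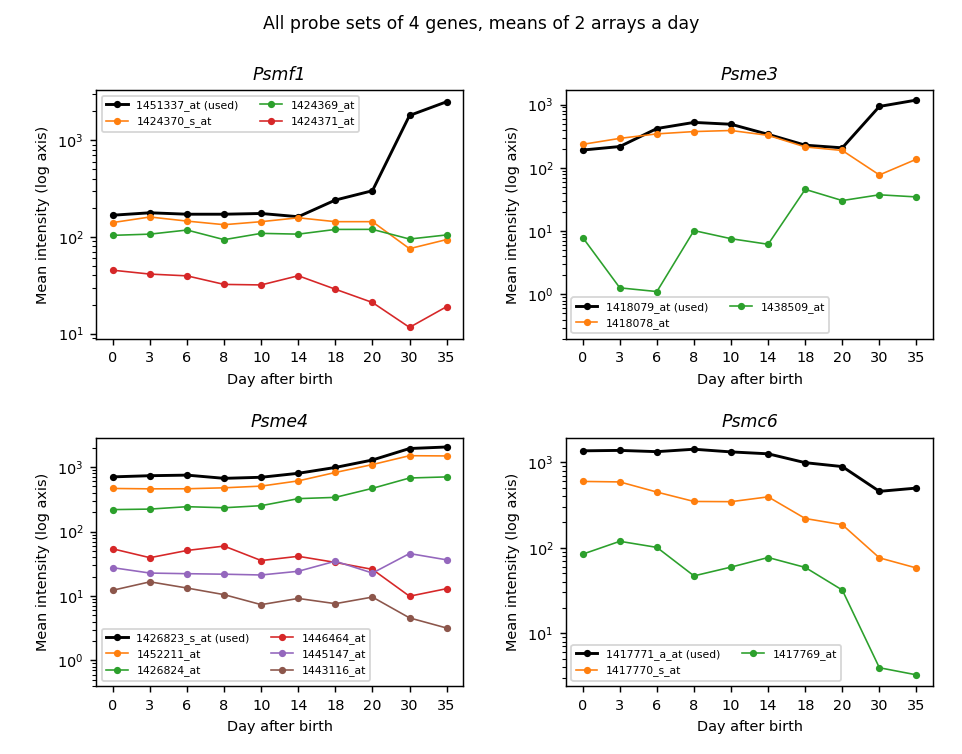
Mean intensity (log axis) of every single-symbol probe set of Psmf1, Psme3, Psme4 and Psmc6 by day after birth (evenly spaced; mean of 2 arrays), the one used in black. The late rise of Psmf1 and of Psme3 appears in the black line and not in the next brightest one, while the 3 brightest probe sets of Psme4 run in parallel and all 3 of Psmc6 decline.

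Probe sets of 1 gene disagreed in other cases too. The 47 genes have 100 single-symbol probe sets, and 26 genes have more than 1. Of 50 further probe sets that passed the filter, 29 had the sign of the one used on day 35 against day 0 and 21 the opposite one, 8 of these past the test, in 8 genes. Those not yet named are probe sets of Psmc1 (1.62), Psmd2 (1.55), Psmd7 (1.37), Psmd11 (2.87) and Psmd13 (1.02), all called higher where the brighter one was not called. Their day 35 means lay between 27.4 and 142, against 3.64 to 65.5 on day 0.

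The late changes came with a large gain of spermatid transcripts. All 4 of 4 spermatid markers rose on day 35 against day 20, beside 8.5% of all genes. Their summed intensity was 24035 to 27104 on the day 35 arrays, against 396 to 413 on day 20 and 44 to 65.7 on day 0. Sertoli cell markers moved the other way: 4 of 5 fell on day 35 against day 0, beside 27.6% of all genes. Their summed intensity was 4142 to 4446 on the day 35 arrays against 8368 to 9121 on the day 0 arrays. Most of these sums was Clu, the marker that stayed under 2-fold (3964 ± 239 on day 35 and 6423 ± 336 on day 0). Amh averaged 10.2 ± 2.34 on day 35, under the 40th percentile of those arrays (24.9 and 25.5), and 734 ± 70.2 on day 0. The part of cell numbers in the rises of Psmf1, Psme3 and Psme4 and in the falls of the core genes was not tested.

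The assembly chaperones, which build the particle and are not part of it, held 2 of the 3 largest falls on day 35 against day 0, the other being that of Psme1. Psmg3, a chaperone of the core, gave 48.9 and 35.1 on the day 35 arrays, against 139 and 135 on day 20 (log2 difference −1.55 ± 0.23 (SE), limma adjusted p = 1.3e-05) and 205 and 241 on day 0 (log2 difference −2.22 ± 0.23 (SE), limma adjusted p = 2.95e-08). Psmd5, a chaperone of the base, averaged 230.1 ± 15.2 on day 20, against 572 ± 20.6 on day 14 (log2 difference −1.29 ± 0.13 (SE), limma adjusted p = 4.71e-08), after a highest mean of 867 on day 8. On day 35 it averaged 161 ± 11.8, against 581 ± 40.2 on day 0 (−1.81). The other 5 were not called on day 35 against day 0: Psmd9 (0.51), Psmd10 (−0.60), Psmg1 (0.21), Psmg2 (0.22) and Psmg4 (−0.96). Psmg1, a scaffold for the alpha ring, had its highest mean on day 18, at 1104, and passed the F test with a range of 1.04.

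Of 12 genes with other names that build, bind or regulate the proteasome, 9 had a tested probe set, and on day 35 against day 0, 1 rose and 4 fell, beside 27.3% and 27.6% of all genes, with a median of −0.72. Akirin2, which in human cells is known for the import of proteasomes into the nucleus, rose (2752 ± 64.7 on day 35 and 1080 ± 31.5 on day 0, log2 difference 1.34 ± 0.10 (SE), limma adjusted p = 3.67e-10). Usp14, a deubiquitinase of the regulatory particle, fell (232 ± 20 on day 35 and 585 ± 19.9 on day 0, −1.31), as did Nfe2l2, a transcription factor of the antioxidant response (−1.30), the proteasome adaptor Ecpas (−1.09) and the small subunit Sem1 (−1.06). Ublcp1, a phosphatase of the proteasome, differed by −0.57 and was not called.

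Of 8 genes for shuttle and unfolding factors, which bring ubiquitinated proteins to the proteasome, 7 had a tested probe set. On day 35 against day 0, 1 rose and 2 fell, beside 27.3% and 27.6% of all genes. Vcp, the ATPase that extracts ubiquitinated proteins, fell (1108 ± 108 on day 35 and 2518 ± 36.5 on day 0, log2 difference −1.18 ± 0.09 (SE), limma adjusted p = 7.06e-10). Its cofactor Ufd1 rose (849 ± 23.8 on day 35 and 293 ± 63.1 on day 0, 1.52). The ubiquilin Ubqln2 fell (−1.59), and its relative Ubqln1 gave −0.74, under 2-fold. 5 genes for ubiquitin and its activating enzyme were not analysed here.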

How the data were processed

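The authors deposited 1 table of probe set intensity values on a linear scale, with the same 2% trimmed mean on all 20 arrays and no detection calls. It was made with software not given in the sources used here, and per the labels' protocols Trizol extraction and a biotin label were used. No column was left out. Of 45101 probe sets, 64 controls were left out, 34945 carry 1 symbol (34741 matched to RefSeq GRCm38.p6 by Entrez identifier), 932 carry several and 9160 are unlisted. Each gene took its brightest single-symbol probe set (mean log2 over the arrays) and was tested if 2 or more arrays had it above their own 40th percentile. Values were log2(intensity + 7.83), where 7.83 is the 20th percentile over all arrays.

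Differences were fitted with limma 3.58.1 in R 4.3.3 (lmFit, eBayes with trend; two-sided) with day as a factor of 10 levels on all 20 arrays, giving 10 residual and 8.88 prior degrees of freedom. p-values were adjusted by Benjamini-Hochberg over the 16429 genes in each of 5 comparisons and over the time course, and calls also needed a log2 difference of at least 1. Promoters and figures used Python 3.11.15, pandas 2.3.3 and matplotlib 3.10.9. The 2 arrays of a day limit the precision.

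Genes were named by rule: every member may be named, with full values for the replacing subunits, those they replace, the activators and Psmb11, and in each comparison the 3 largest rises and falls. Over the time course the rule takes the 3 largest and 3 smallest ranges, and of each related list the 4 genes of largest range plus Irf1, B2m and Tap1; a further gene of the rule is not reported here. The members and lists were chosen with earlier results of these data known. Same-numbered arrays of 2 days did not deviate together: over 45 pairs of days the correlations ran from −0.0249 to 0.0561, so the numbers were not taken as pairs. Alternatives were other scalings, pseudocounts, filters, probe set rules, variance models, thresholds, a replicate block, fits on the 2 days alone and leaving out each array.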

Additional observations from a re-analysis of the deposited data

Results flagged for a closer look

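A clear signal lay in a probe set that no comparison used. Psme2, the partner of Psme1 in the interferon-induced activator, is listed only on 1417189_at, together with Psme2b, so the 2 genes cannot be told apart on it. Its mean intensity was 819 ± 14.3 on day 0, 994 ± 18.2 on day 3, 1088 ± 7.5 on day 6, 1203 ± 19.8 on day 8, 1106 ± 27 on day 10, 767 ± 135 on day 14, 509.8 ± 3.87 on day 18, 349 ± 15.5 on day 20, 194 ± 50.8 on day 30 and 173 ± 21.1 on day 35 (SD, n = 2). The log2 difference on day 35 against day 0 was −2.20, beside −2.05 for Psme1. It was not tested. Its highest mean was on day 8 and that of Psme1 on day 0, and both were below their day 0 means from day 14 on.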

How the results depend on the processing

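Among 34 other settings, no called value changed sign: of 849 repeats of the 25 called differences, 838 stayed called and 11 were no longer called, 8 of them with the mean of all probe sets of a gene. Many of these repeats could not change the difference, so the 838 overstate how firm the calls are. Leaving out an array of a day outside the comparison, or changing only the threshold, keeps the same difference. By the adjusted p alone the counts were 45 genes over the time course, 10 higher and 1 lower on day 8 against day 0, 14 lower on day 14 against day 8, 14 higher and 18 lower on day 20 against day 14, 7 higher and 28 lower on day 35 against day 20, and 11 higher and 29 lower on day 35 against day 0. With the mean of all probe sets, 20 genes were called over the time course, none was higher on day 8 against day 0, none was higher and 2 were lower on day 35 against day 20, and 5 were higher and 8 lower on day 35 against day 0. A common median gave 35 over the time course, 2 higher on day 8 against day 0 and 15 lower on day 35 against day 0, and quantile normalization 2 higher on day 20 against day 14. Leaving out 1 array at a time gave 25 to 29 genes over the time course, 1 to 3 higher on day 8 against day 0, 2 to 3 higher and 1 to 3 lower on day 35 against day 20, and 7 to 8 higher and 10 to 13 lower on day 35 against day 0. With the replicate number as a block, which the data do not bear out as a pairing, every count was as reported, such as 27 over the time course and 7 higher and 11 lower on day 35 against day 0. Fitting all single-symbol probe sets as separate features, 30242 in all, was added after seeing the data. The calls and adjusted p of probe sets not used for their gene come from that fit. Psmb8 and Psmb9 lie at the dim end of the arrays, which, with 2 arrays a day, limits their precision. The cause of these shifts was not tested.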
